A study of Mus musculus with 6 samples.

Results

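The core circadian clock genes examined here are 10 genes chosen by name for their role in the loop: Arntl, Clock and Npas2, which encode the activators, Per1, Per2, Per3, Cry1 and Cry2, which encode the period and cryptochrome repressors, and Nr1d1 and Nr1d2, which encode the nuclear receptors REV-ERB alpha and REV-ERB beta. The choice of these genes and of the lists below was made with earlier results of these data known. Counts set against the shares of all genes are therefore descriptive. All 10 were found among the 55487 genes of the count table, and 9 of the 10 had enough counts to enter the test of 14046 genes. Liver RNA was sequenced from 3 mice given GalNAc-siRnf10 and 3 mice given GalNAc-siNC, with 1 library per mouse. All 6 were wild-type male C57BL/6J mice on a normal chow diet, injected subcutaneously and sampled at 17 weeks of age, and the labels place all 6 libraries in batch 1. GalNAc is a sugar ligand taken up by the asialoglycoprotein receptor of hepatocytes, siRnf10 is a small interfering RNA against Rnf10, which encodes an E3 ubiquitin ligase, and siNC is the control RNA on the same ligand. A conjugate of this kind lowers its target mainly in hepatocytes and does not delete the gene. Every mouse is a single time point, and the hour at which the livers were taken and the dose of this experiment are not given in the sources used here. Whether both groups were taken at the same hour is not given either. A difference by treatment and a difference by hour therefore cannot be told apart.

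In the liver, as in other tissues, the clock is a feedback loop. The BMAL1 protein, encoded by Arntl, pairs with CLOCK or NPAS2, binds E-box sequences and switches on the Per, Cry and Nr1d genes, and the PER and CRY proteins then enter the nucleus and repress the pair that activated them. REV-ERB alpha and beta close a further loop by repressing Arntl, Clock, Npas2 and Cry1 at ROR elements, which the ROR receptors activate instead, while DBP and its relatives act at D-boxes. The transcripts of these genes rise and fall over the day at different hours, and the time of feeding and glucocorticoid hormones are known to act on the hepatic clock.

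Rnf10 itself had normalized counts of 3855, 4520 and 4026 in the GalNAc-siNC mice and 1732, 1814 and 1787 in the GalNAc-siRnf10 mice, a log2 fold change of -1.22 (SE 0.0715, adjusted p = 3.29e-09). A normalized count is a read count scaled to the effective library size, so that values of 1 gene can be compared between mice. Total counts ranged from 26854377 to 33058645 per library, at which 3 counts are at most 1.12e-05% of a library (counting error only). Alb took 3.72% to 4.36% of the counts with GalNAc-siNC and 5.93% to 6.08% with GalNAc-siRnf10, and the markers Cpa1 and Amy2a5 of pancreas, Adipoq and Plin1 of fat and Acta1 and Myh4 of skeletal muscle were at 0 in every library, while Cela2a of the same pancreas list had 19 to 37 and Cidec of the fat list 67 to 111 raw counts per library. The library of GalNAc-siNC mouse 1 stood apart: the chi-square per gene between it and the other libraries of its group was 30.0 and 30.7, against 10.3 between those others and 4.70 to 5.37 between the GalNAc-siRnf10 libraries. Values without that mouse are therefore given for the clock genes.

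All 3 period genes and 1 of the 2 cryptochromes rose with GalNAc-siRnf10, and 1 of the 2 REV-ERB genes fell. Per1, Per2, Per3 and Cry1 were the genes that rose and Nr1d1 the one that fell, while Arntl, Clock, Cry2 and Nr1d2 did not pass the test. The test was the quasi-likelihood F-test of edgeR, adjusted by Benjamini-Hochberg over all genes tested, with a threshold of 0.05 on the adjusted p. Of the 9 clock genes tested, 5 were thus called, 4 of them higher and 1 lower. Over all genes tested, 14.0% were called, 6.71% higher and 7.28% lower. The median log2 fold change was 0.19 over the 9 clock genes and 0.0022 over all genes tested. Each normalized count with GalNAc-siRnf10 lay outside the range with GalNAc-siNC for 6 of the 9 clock genes, namely the 5 called genes and Nr1d2, as it did for 32.8% of all genes tested. For each of those 6 the exact two-sided permutation test gave p = 0.1, the smallest that 3 mice against 3 allow. As these are bulk tissue libraries, fewer cells of a type and less RNA per cell cannot be told apart.

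**Figure D1:**
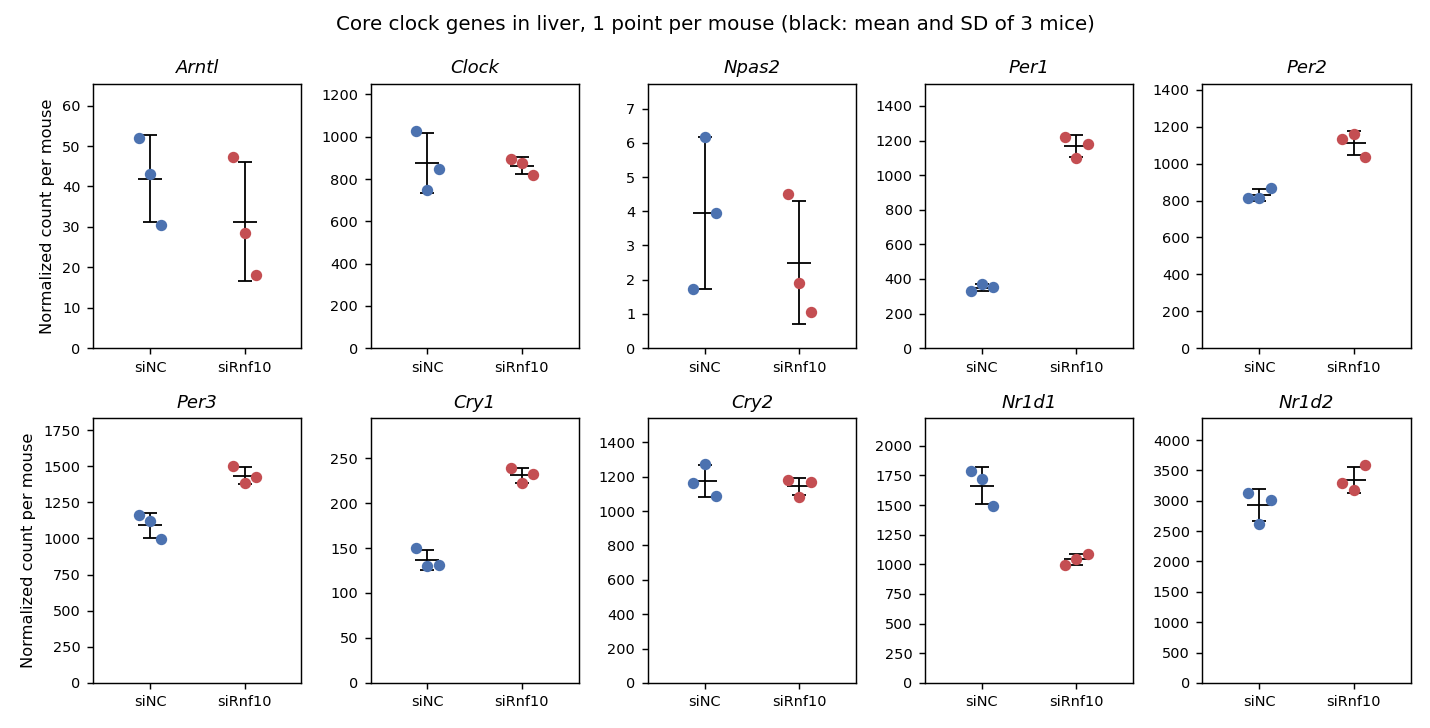
Normalized read counts of the 10 core clock genes in the liver of each mouse, with 1 point per mouse, GalNAc-siNC in blue and GalNAc-siRnf10 in red, and the mean and SD of 3 mice in black. Every axis starts at 0 and has its own scale. The red points lie above all blue points for Per1, Per2, Per3, Cry1 and Nr1d2 and below them for Nr1d1, and the colours overlap for Arntl, Clock, Npas2 and Cry2.

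Several promoters of these genes carry sequence elements through which the loop is known to act, and those that hold an exact match are shown to place the genes that moved beside those that did not. The 250 bases upstream of each annotated start were searched on both strands in the RefSeq promoter table of GRCm38.p6, which holds 13 starts of 9 of the 10 genes, all but Per2. The E-box was searched as CACGTG, the E'-box as CACGTT, the D-box as TTATGTAA, the core of the ROR element as TAGGTCA and the cAMP response element as TGACGTCA, and no 2 of the matches shown share a base. Capitals mark the match in each sequence, which is written 5′ to 3′ on the strand of the gene with the same number of flanking bases on each side. A match on the other strand to the E'-box reads AACGTG.
Per1 E-box, starting 166 bases upstream (chr11:69098768-69098803, plus strand): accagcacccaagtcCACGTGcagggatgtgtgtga
Cry1 E-box, starting 60 bases upstream (chr10:85185094-85185129, minus strand): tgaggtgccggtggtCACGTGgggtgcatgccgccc
Cry1 E'-box, starting 79 bases upstream (chr10:85185113-85185148, minus strand): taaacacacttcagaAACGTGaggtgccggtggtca
Cry2 E'-box, starting 166 bases upstream (chr2:92434215-92434250, minus strand): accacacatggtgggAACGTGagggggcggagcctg
Nr1d1 E'-box, starting 28 bases upstream (chr11:98775385-98775420, minus strand): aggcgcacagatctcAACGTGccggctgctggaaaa
Per3 first D-box, starting 205 bases upstream (chr4:151044848-151044885, minus strand): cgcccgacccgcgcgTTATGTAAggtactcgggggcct
Per3 second D-box, starting 158 bases upstream (chr4:151044801-151044838, minus strand): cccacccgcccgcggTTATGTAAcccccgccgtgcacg

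The E-box was thus found in 2 of the 9 genes and the E'-box in 3 of the 9, against 6.86% and 4.50% of the 27025 genes with a promoter in the table. The D-box was found in Per3 alone among the 9 genes and in 0.977% of all genes of the table. The ROR element core and the cAMP response element were in none of the 9, and in 2.55% and 1.77% of all genes. Counted by start, the E-box was in 2 and the E'-box in 3 of the 13 promoters, against 6.02% and 3.85% of all 32851. A match is a description of the letters in this window, and elements elsewhere in these genes were not searched. Genes with a match included Per1, Per3 and Cry1, which rose, Nr1d1, which fell, and Cry2, which did not pass the test.

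Of the activators, none passed the test. Arntl (ENSMUSG00000055116, chr7:113207465-113314126, plus strand, GRCm38) is the one activator that the loop cannot do without. Its normalized counts were 52.0, 43.2 and 30.5 in the GalNAc-siNC mice and 47.3, 28.6 and 18.0 in the GalNAc-siRnf10 mice. The lowest value belonged to a GalNAc-siRnf10 mouse and the highest to a GalNAc-siNC mouse, but the groups overlapped over most of their range. The log2 fold change was -0.43 (SE 0.347, adjusted p = 0.466), which is a fold of 0.741 with a 95% confidence interval of 0.446 to 1.23. Arntl was the least abundant of the tested clock genes, with raw counts of 17 to 60 per library, and a fall or a rise within that interval was not detectable with 3 mice per group. Its mouse-to-mouse coefficient of variation was 25.8% with GalNAc-siNC and 47.3% with GalNAc-siRnf10, wider in both groups than for any other tested clock gene.

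Clock (ENSMUSG00000029238, chr5:76209868-76304792, minus strand), which encodes the usual partner of BMAL1, was measured at 1028, 748 and 848 normalized counts with GalNAc-siNC and at 893, 878 and 819 with GalNAc-siRnf10. All 3 GalNAc-siRnf10 values lay inside the range of the control mice. The log2 fold change was -0.02 (SE 0.103, adjusted p = 0.923) and the 95% confidence interval of the fold was 0.848 to 1.15. Mouse 1 of the GalNAc-siNC group had the highest value, and without it the log2 fold change of Clock was 0.11 (adjusted p = 0.406). Npas2 (ENSMUSG00000026077, chr1:39193731-39363236, plus strand), a paralog that can take the place of CLOCK, had raw counts of only 2, 6 and 4 with GalNAc-siNC and 4, 2 and 1 with GalNAc-siRnf10. These sums of 12 and 7 reads left it below the filter on low counts. With no such filter its log2 fold change was -0.64 with an SE of 1.18 (adjusted p = 0.820), so no difference was detectable at this depth.

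The period genes rose together, with Per1 far ahead of its paralogs. Per1 (ENSMUSG00000020893, chr11:69095217-69109960, plus strand) encodes a repressor of the CLOCK and BMAL1 pair and is also known as an immediate target of hormone and cAMP signals. It had 331, 368 and 351 normalized counts in the GalNAc-siNC mice and 1222, 1099 and 1179 in the GalNAc-siRnf10 mice. The lowest GalNAc-siRnf10 mouse was well above the highest control mouse, and the spread within each group was small beside the gap. Its mean rose from 349.7 ± 18.7 to 1167 ± 62.7 (SD, n = 3 each), a log2 fold change of 1.74 (SE 0.0888, adjusted p = 6.64e-10) and a fold of 3.34 (95% confidence interval 2.93 to 3.80). It ranked 46 from the top among the 14046 genes tested by log2 fold change.

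Genes that glucocorticoid receptors are known to induce in liver moved beside Per1. Of a list of 10 such genes, 6 rose, 1 fell (Dusp1, a phosphatase of MAP kinases, -0.30) and 3 did not pass the test, against 6.71% higher and 7.28% lower over all genes tested, and the median log2 fold change was 0.51. Tsc22d3, which encodes the leucine zipper protein GILZ, rose by a log2 fold change of 1.89 and Tat, tyrosine aminotransferase, by 1.41. The 3 that did not pass were Zbtb16 at 0.54 (adjusted p = 0.0694 by edgeR), Klf9 at -0.11 and Mt2 at -0.64. The summed normalized count of the list was 128503 to 142433 with GalNAc-siNC and 214274 to 216706 with GalNAc-siRnf10, most of it from Pck1, Errfi1 and Tat. Its part in the rise of Per1 was not tested.

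Per2 (ENSMUSG00000055866, chr1:91415982-91459324, minus strand), the period gene whose loss most disturbs daily rhythm, had 811, 812 and 866 normalized counts with GalNAc-siNC and 1134, 1161 and 1037 with GalNAc-siRnf10. The groups did not overlap. The log2 fold change was 0.42 (SE 0.0799, adjusted p = 0.00159), a fold of 1.34 (95% confidence interval 1.19 to 1.50). Per3 (ENSMUSG00000028957, chr4:151003652-151044665, minus strand), a period gene that the loop can run without, had 1162, 1118 and 993 normalized counts with GalNAc-siNC and 1500.4, 1382 and 1424 with GalNAc-siRnf10. Again every GalNAc-siRnf10 mouse was above every control mouse. Its log2 fold change of 0.40 (SE 0.0793, adjusted p = 0.00249) was close to that of Per2, and its fold was 1.32 (95% confidence interval 1.17 to 1.48).

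The cryptochromes, the partners of PER and the stronger repressors of the pair, parted. Cry1 (ENSMUSG00000020038, chr10:85131700-85185064, minus strand) had 150.1, 131 and 131 normalized counts with GalNAc-siNC and 239, 222 and 232 with GalNAc-siRnf10. The groups were well separated, and the log2 fold change was 0.75 (SE 0.134, adjusted p = 0.000992), a fold of 1.68 (95% confidence interval 1.38 to 2.05). Cry2 (ENSMUSG00000068742, chr2:92403646-92434043, minus strand) had 1162, 1273 and 1088 normalized counts with GalNAc-siNC and 1179, 1084 and 1167 with GalNAc-siRnf10. These ranges overlapped almost fully. The log2 fold change of Cry2 was -0.04 (SE 0.0803, adjusted p = 0.808) and the 95% confidence interval of its fold was 0.866 to 1.10. A transcript on the opposite strand, D930015M05Rik, shares 295 bases of Cry2 exons but had 7 to 24 counts per library.

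The REV-ERB genes also parted. Nr1d1 (ENSMUSG00000020889, chr11:98767932-98775333, minus strand) had 1784, 1716 and 1492 normalized counts with GalNAc-siNC and 990.1, 1048 and 1085 with GalNAc-siRnf10. The highest GalNAc-siRnf10 mouse was below the lowest control mouse. The mean fell from 1664 ± 153 to 1041 ± 47.7 (SD, n = 3 each), a log2 fold change of -0.68 (SE 0.0816, adjusted p = 1.78e-05) and a fold of 0.625 (95% confidence interval 0.555 to 0.705). Nr1d1 shares 263 bases, 8.55% of its exon bases, with Thra on the opposite strand, and the setting of strand in the counting is not given in the sources used here. Thra had 211 to 281 counts per library and a log2 fold change of -0.04 (adjusted p = 0.889), while the means of Nr1d1 differed by 623 normalized counts.

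Nr1d2 (ENSMUSG00000021775, chr14:18204054-18239127, minus strand) had 3128, 2625 and 3018 normalized counts with GalNAc-siNC and 3289, 3170 and 3584 with GalNAc-siRnf10. The groups did not overlap, though the gap between them was narrow beside the spread within each. The log2 fold change was 0.19 (SE 0.0756) with an adjusted p of 0.101, which missed the threshold, and the 95% confidence interval of the fold was 1.02 to 1.28. Without GalNAc-siNC mouse 1 it passed, with a log2 fold change of 0.24 (adjusted p = 0.00289), and with all 6 libraries it passed by limma voom (adjusted p = 0.0407). More genes passed in both settings, 2864 of 14343 without that mouse and 2311 of 14046 by limma voom. The main test called 1965 of 14046. Without that mouse the calls of the other tested clock genes were as before, with log2 fold changes of 1.70 for Per1, 0.40 for Per2, 0.44 for Per3, 0.82 for Cry1, -0.62 for Nr1d1, -0.24 for Arntl and -0.05 for Cry2.

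**Figure D2:**
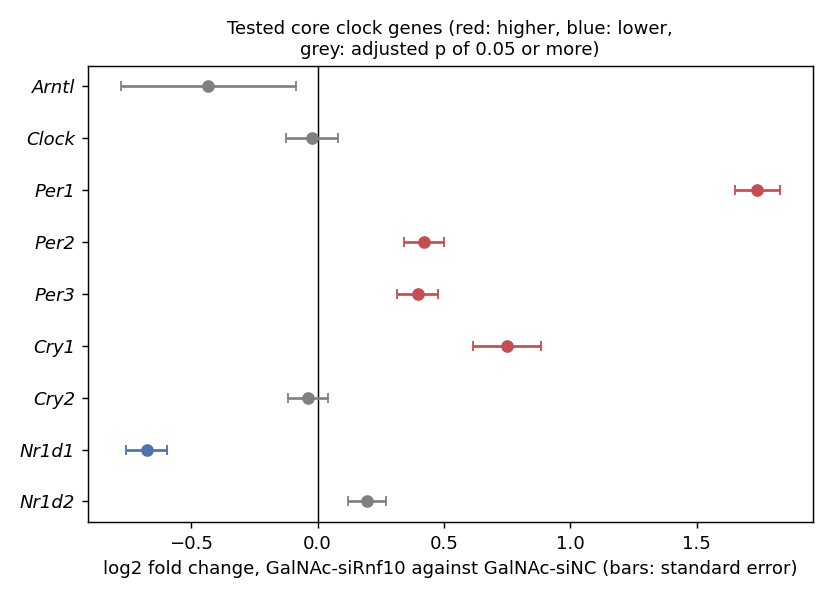
Log2 fold change of the 9 tested core clock genes, GalNAc-siRnf10 against GalNAc-siNC, with the standard error as bars. Red points (Per1, Per2, Per3, Cry1) were higher and the blue point (Nr1d1) was lower at an adjusted p under 0.05, and grey points did not pass. Per1 stands farthest from 0 at 1.74, and Arntl has the widest bar.

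Since reads of paralogs come from the same library, their ratio within a mouse does not depend on how libraries were scaled. The count ratio of Per1 to Per2 was 0.407, 0.453 and 0.405 in the GalNAc-siNC mice and 1.08, 0.947 and 1.14 in the GalNAc-siRnf10 mice. Per1 thus went from less than its paralog to about as many reads, and the ratio rose 2.49-fold on the mean of logs without overlap. Per1 to Per3 rose likewise, from 0.285, 0.329 and 0.353 to 0.815, 0.795 and 0.828. The ratio of Per2 to Per3 was 0.698, 0.726 and 0.873 with GalNAc-siNC and 0.756, 0.840 and 0.728 with GalNAc-siRnf10, so that these 2 paralogs could not be told apart in their change.

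The count ratio of Cry1 to Cry2 was 0.129, 0.103 and 0.120 with GalNAc-siNC and 0.202, 0.205 and 0.199 with GalNAc-siRnf10, a 1.73-fold rise without overlap. Nr1d1 to Nr1d2 was 0.570, 0.654 and 0.494 with GalNAc-siNC and 0.301, 0.331 and 0.303 with GalNAc-siRnf10, which is 1.83-fold lower, again without overlap. The 2 genes of each of these pairs therefore changed unequally between the groups. Set against Arntl, the ratio of Per1 was 6.35, 8.52 and 11.5 with GalNAc-siNC and 25.8, 38.4 and 65.4 with GalNAc-siRnf10. The ratio of Cry1 to Arntl was 2.88, 3.02 and 4.29, then 5.05, 7.77 and 12.9. Neither overlapped between groups, whereas the ratios of the other 7 clock genes to Arntl did. The ratio of Nr1d1 to Arntl, for example, was 34.3, 39.8 and 48.9 with GalNAc-siNC and 20.9, 36.7 and 60.1 with GalNAc-siRnf10. Arntl had raw counts of only 17 to 60 per library, and its spread enters each of these ratios. Per2, Per3, Nr1d1 and Nr1d2 did not overlap between groups in their own normalized counts. Overlap of a ratio to Arntl is therefore not read as a split among the clock genes. No share without overlap over all genes is given for ratios.

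**Figure D3:**
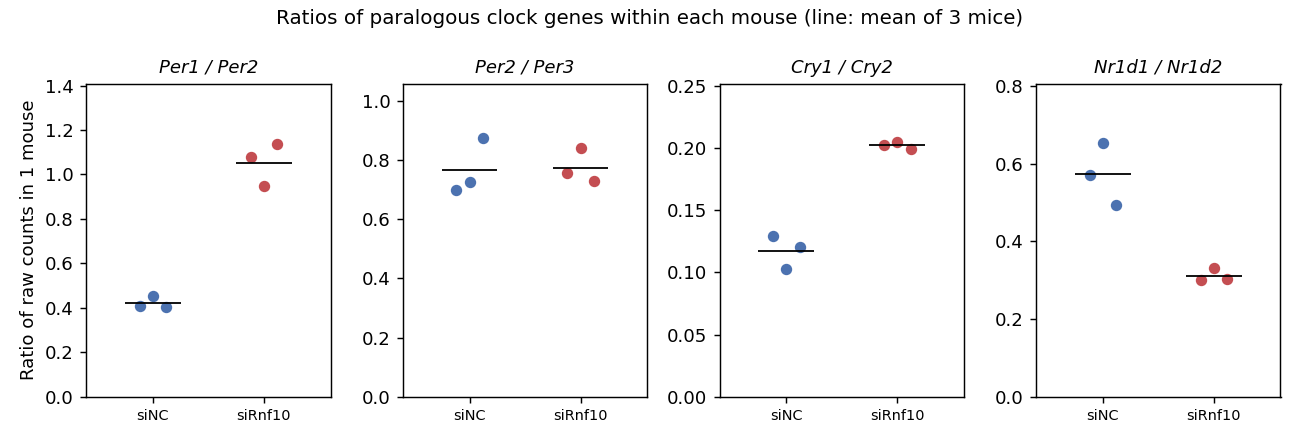
Ratio of raw counts of paralogous clock genes within each mouse, with 1 point per mouse and a line at the mean of 3 mice, for GalNAc-siNC (blue) and GalNAc-siRnf10 (red). Per1 to Per2 and Cry1 to Cry2 were higher and Nr1d1 to Nr1d2 was lower in all 3 GalNAc-siRnf10 mice, while Per2 to Per3 overlapped.

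The clock genes spanned a wide range of abundance in these livers. As their transcripts rise and fall over the day and the hour is not given, the order holds for these samples alone. It also depends on the gene lengths used. Divided by the length of each gene model, the levels with GalNAc-siNC were highest for Nr1d1 and Nr1d2, at 541 ± 49.8 and 541 ± 48.9 normalized counts per kilobase (SD, n = 3). Cry2 followed at 186 ± 14.8, Per2 at 142 ± 5.42 and Per3 at 114 ± 9.14. Next came Clock at 63.7 ± 10.3 and Per1 at 62.1 ± 3.33, which did not differ beyond their spread, as the REV-ERB genes did not. Cry1 stood at 41.1 ± 3.34, Arntl at 5.57 ± 1.44 and Npas2 at 0.824 ± 0.463 normalized counts per kilobase. With GalNAc-siRnf10 the order of levels changed. Nr1d2 was alone at the top with 619 ± 39.4 normalized counts per kilobase, and Nr1d1 followed with 338 ± 15.5. Per1 moved from the seventh place to the third, at 207 ± 11.1, where it overlapped with Per2 at 189.6 ± 11.1, which in turn overlapped with Cry2 at 181 ± 8.19, a gene that stood above Per2 with GalNAc-siNC. Per3 (149 ± 6.26), Cry1 (69.2 ± 2.54), Clock (62.9 ± 2.84), Arntl (4.16 ± 1.97) and Npas2 (0.520 ± 0.375) made up the rest, with Cry1 now above Clock.

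**Figure D4:**
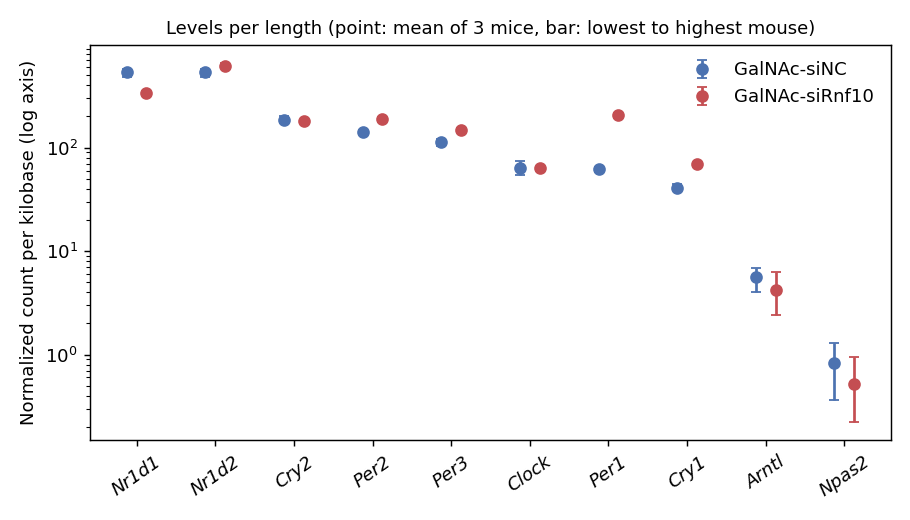
Level of each core clock gene per length, in normalized counts per kilobase of gene model on a log axis, in the order of the GalNAc-siNC means. Points are means of 3 mice and bars run from the lowest to the highest mouse. Nr1d1 and Nr1d2 share the top with GalNAc-siNC at 541, and Per1 goes from 62.1 to 207 with GalNAc-siRnf10.

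Genes outside the loop with the most similar profiles over the 6 mice were found for 1 gene of each arm, by the root mean square difference of log2 normalized counts, each centred on its own mean, among 10928 tested candidates whose normalized counts averaged 50 or more. For Arntl the nearest were Wdr47, Zbtb49 and Lrp2, with differences of 0.249 to 0.266, none of them called. For Per2 they were Ces2e, a carboxylesterase, Apbb3 and Ndufaf4, an assembly factor of mitochondrial complex I, with differences of 0.0315 to 0.0371. For Nr1d1 they were Ces4a, another carboxylesterase, Zmiz1 and Nedd4l, a ubiquitin ligase, with differences of 0.0577 to 0.0620. The profile of Arntl thus had no neighbour as close as those of Per2 and Nr1d1. Arntl itself averaged 41.9 normalized counts with GalNAc-siNC and 31.3 with GalNAc-siRnf10, below the 50 asked of candidates. Genes of like depth were therefore left out, and counting error weighs more on Arntl than on Per2 or Nr1d1. The larger difference is thus not read as a trait of its profile. The 6 mice fall in 2 groups, so genes with a like difference between the groups are close by this measure.

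The other genes of the clock were taken as 6 lists with 47 genes, all of which were tested. Of these, 8 rose and 0 fell, or 17.0% higher against 6.71% of all genes tested, and the median log2 fold change was 0.017. At an unadjusted p under 0.05 edgeR gave 11 higher and 5 lower, DESeq2 called 8 higher and 0 lower, and limma voom called 10 higher and 2 lower. The rises were not spread evenly. Liver output genes, which follow the clock, held 6 of the 8 among 10 tested (median 0.46), and the accessory repressors and the ubiquitin ligases and proteases held 1 each among 7 and 8 tested, with medians of -0.20 and -0.01. None of the 3 PAR-bZIP factors (median 0.12) was called by edgeR, DESeq2 or limma voom, or had an unadjusted p under 0.05. None of the 11 paralogs and cofactors of the activators (median -0.11) and none of the 8 kinases (median 0.03) was called by edgeR. At an unadjusted p under 0.05 these lists held 2 lower genes and 1 higher and 1 lower gene, DESeq2 called none in either, and limma voom called 1 higher and 1 lower kinase.

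Ciart, an accessory repressor that blocks the BMAL1 and CLOCK pair, rose from 329.8 ± 44.5 to 806 ± 81.5 normalized counts (SD, n = 3 each), a log2 fold change of 1.29 (adjusted p = 4.23e-07). The other accessory repressors did not pass the test, among them Bhlhe40 (DEC1) at -0.20 (adjusted p = 0.0523) and Nfil3 (E4BP4) at -0.05. At an unadjusted p under 0.05 edgeR gave 2 higher and 2 lower genes in this list. DESeq2 called 1 higher and 0 lower, and limma voom 1 higher and 1 lower. Dbp, the D-box activator whose transcript follows E-box activity closely, had normalized counts of 1819, 3108 and 2836 with GalNAc-siNC and 3091, 2982 and 3141 with GalNAc-siRnf10. Apart from control mouse 1 the values of Dbp lay in 1 narrow range, and its log2 fold change was 0.25 (adjusted p = 0.532). Dbp shares 539 exon bases with Sphk2 on the opposite strand, which fell by 0.64 on the log2 scale (adjusted p = 0.000217). Its relatives Tef (0.12) and Hlf (-0.02) did not pass either.

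Of the 10 liver output genes 6 were called higher and 4 did not pass the test. Among them Noct, which encodes the rhythmic phosphatase nocturnin, rose most, from 668 ± 34.5 to 2459 ± 88.9 normalized counts (SD, n = 3 each), a log2 fold change of 1.88 (adjusted p = 1.82e-11). Cyp7a1, the rate-limiting enzyme of bile acid synthesis, rose from 7067 ± 851 to 14303 ± 316 (log2 fold change 1.02, adjusted p = 5.86e-08). Alas1, the first enzyme of haem synthesis, rose by 0.75, Gys2, the glycogen synthase of liver, by 0.48, and Nampt, the rate-limiting enzyme of NAD salvage, by 0.44 on the log2 scale. Por, the reductase that serves the cytochromes P450, rose by 0.29 (adjusted p = 0.0178), a call that was lost when GalNAc-siNC mouse 3 or any of the GalNAc-siRnf10 mice was left out. Usp2, a ubiquitin protease that acts on PER1 and CRY1, rose by 0.77 on the log2 scale (adjusted p = 1.37e-05).

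**Figure D5:**
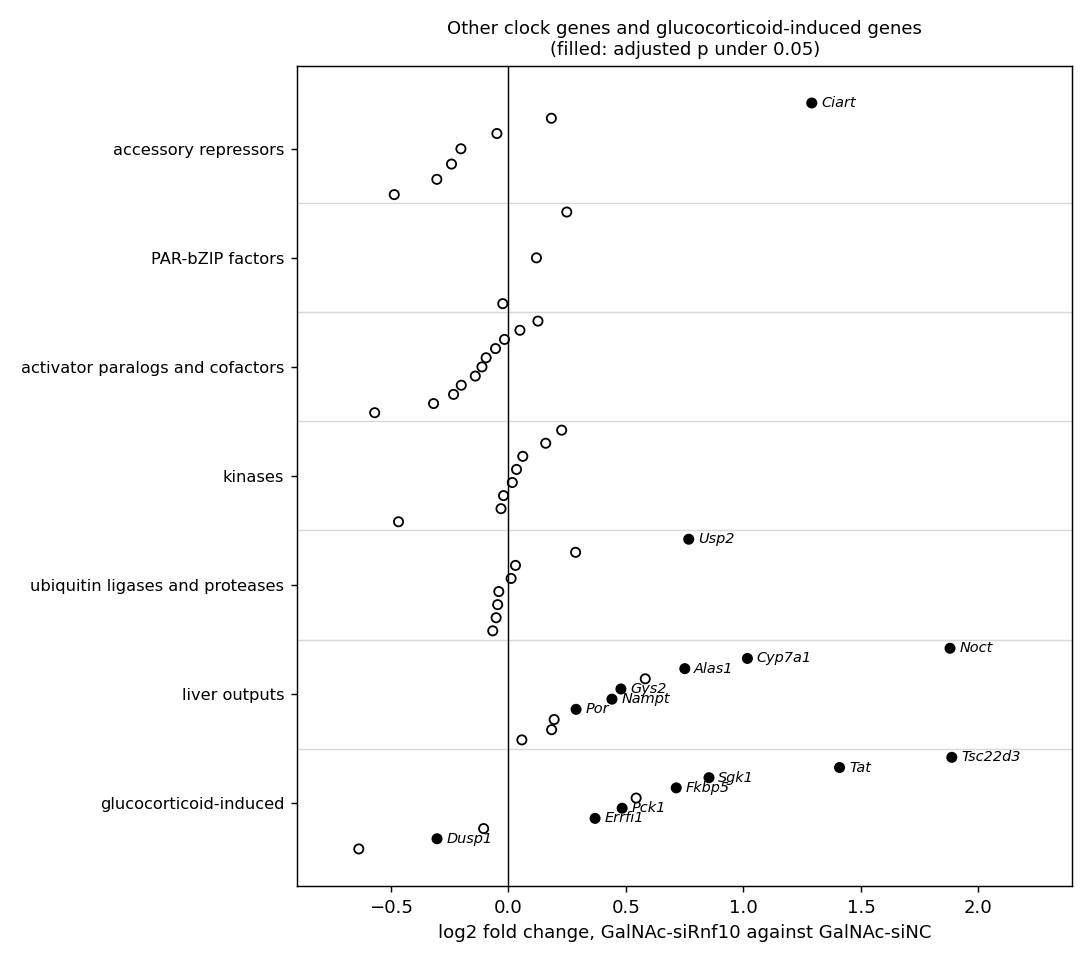
Log2 fold change, GalNAc-siRnf10 against GalNAc-siNC, of the other clock genes in 6 lists and of the glucocorticoid-induced genes, with 1 point per tested gene. Filled points passed an adjusted p of 0.05 and are named. Ciart, Noct and Cyp7a1 stand beyond 1 among the clock lists, and no filled point of the clock lists lies below 0.

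Some markers of the cell types of the liver also moved with the groups, and their counts are to be read against the 6.71% higher and 7.28% lower of all genes tested. Of 6 hepatocyte markers 4 rose, with a median log2 fold change of 0.43. None of the 5 Kupffer cell and none of the 5 erythroid markers was called by edgeR, DESeq2 or limma voom, and 1 Kupffer cell marker and no erythroid marker had an unadjusted p under 0.05. For the sinusoidal endothelium 2 of 5 rose, and the summed normalized count was 1673 to 1679 with GalNAc-siNC and 1736 to 1838 with GalNAc-siRnf10. Of these 5, DESeq2 called 1 higher and 0 lower, and limma voom 1 higher and 1 lower. Stab2, the most abundant of them, went from a mean of 708 to 592 without overlap (-0.26, adjusted p = 0.0544 by edgeR). For stellate cells 2 of 5 rose, Reln and Dcn, with sums of 2542 to 2605 and 3007 to 3037 that came mostly from Dcn. Their median log2 fold change was -0.20, with Lrat at -0.27, Col1a1 at -0.26 and Des at -0.20, none of them called. For cholangiocytes 1 of 5 fell, Spp1, which made up most of the summed 2026 to 2066 and 1119 to 1150. Spp1 went from a mean of 1829 to 979 normalized counts, and Krt19, Krt7, Epcam and Sox9 did not pass the test. The median log2 fold change of the cholangiocyte markers was -0.26. Sox9 went from a mean of 131 to 89.4 without overlap (-0.54, adjusted p = 0.0555 by edgeR). DESeq2 called 1 of the 5 lower and limma voom 2. Of the lymphocyte markers none of the 3 tested was called by any of these tools or had an unadjusted p under 0.05. Of the neutrophil markers 1 of the 2 tested fell, and edgeR gave 2 lower at an unadjusted p under 0.05. The uncalled Csf3r went from a mean of 56.1 to 38.9 without overlap. The part of the cell type markers in the differences of the clock genes was not tested.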

How the data were processed

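Stranded mRNA libraries were read from both ends, and the submitters' processing notes name HISAT2, GRCm38 (mm10) and DESeq2. The deposited values are raw counts per gene, without normalization, beside a gene length that the authors deposited in bases. The counter, the annotation release and the strand setting are not given in the sources used here. Symbols came from GENCODE M21 (GRCm38). Of 55487 identifiers 260 had no symbol, and 99.4% of matched identifiers had the same start and end.

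Here the counts went through edgeR 4.0.16 in R 4.3.3, with TMM factors, the filterByExpr filter within groups, a robust quasi-likelihood F-test with treatment as the sole term and Benjamini-Hochberg adjustment over 14046 genes (threshold 0.05). Confidence intervals of 95% used the degrees of freedom of that fit. For single values an exact permutation test, two-sided, was used. Log2 normalized counts used a pseudocount of 0.5. Each library is a separate mouse, and the sample titles give no pairing of same-numbered mice. The 10 clock genes and all lists were chosen with earlier results of these data known. Named genes were the 10, Rnf10, called genes of the clock lists, 3 nearest profiles each for Arntl, Per2 and Nr1d1, and overlapping genes. Other uncalled list genes (such as Dbp, Tef, Hlf, Bhlhe40 and Nfil3) and the glucocorticoid-induced genes were picked for naming with their values in view. Alternatives were RLE and upper quartile factors, other filters, DESeq2 1.42.0, limma 3.58.1 voom, a replicate block, GC content and length offsets, a threshold of 0.01 and leaving out each mouse. Some genes of the clock lists are not reported here. The differential expression step was tested on simulated data. Figures were drawn with matplotlib 3.10.9.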

Additional observations from a re-analysis of the deposited data

How the results depend on the processing

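Over 15 alternatives the calls of Per1 (log2 fold change 1.70 to 1.88), Per2 (0.39 to 0.52), Per3 (0.33 to 0.47, highest adjusted p 0.0323), Cry1 (0.71 to 0.82) and Nr1d1 (-0.75 to -0.60) held, and Arntl was not called under any (-0.84 to -0.16). Nr1d2 (0.12 to 0.24) was called with limma voom (0.20, adjusted p = 0.0407), with GC content and length offsets (0.18, adjusted p = 0.0254), with these and the replicate block (0.18, adjusted p = 0.0261) and without GalNAc-siNC mouse 1. In that order these settings called 2311, 2445, 2352 and 2864 genes, more than the 1965 of the main test. The fold changes near 0 turned sign without being called. Clock was 0.033 with limma voom and ran from -0.12 to 0.11 when 1 mouse was left out. Cry2 was 0.0860 with the offsets and 0.0864 with these and the replicate block, and ran from -0.094 to 0.021 when 1 mouse was left out. The cause was not tested. The count of clock genes called was 4 or 5 higher and 1 lower in every alternative, also at an adjusted p under 0.01.

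The number of genes called, 1965, was 1816 with the replicate block, 1042 at an adjusted p under 0.01, and 1053 to 2864 when 1 mouse was left out (1053, 1128 and 1128 without GalNAc-siRnf10 mouse 1, 2 and 3). The sample titles give no pairing of same-numbered mice. Correlations of their deviations from the group means were -0.00099, 0.027 and -0.034. With 3 mice per group, each centred on its group mean, these cannot show whether mice were paired. The replicate block alone changed no call among the clock genes. Depth limited Npas2, which had 1 to 6 counts per library.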
